A study of Homo sapiens with 6 samples.

Results

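The elastic fiber genes described here are MFAP5, MFAP2, MFAP4, FBN1, FBN2, ELN, EMILIN1, LOX, FBLN5 and LTBP2, 10 of the 57820 genes in the deposited tables, matched by gene name. The set was chosen by the RNA level of MFAP5, which falls strongly in ARID1A-KO cells in these same samples, so the values of MFAP5 are given as a description without a test. RNA-seq covered 6 samples of untreated AID-DIvA cells, 3 with WT ARID1A and 3 with ARID1A knocked out (ARID1A-KO), numbered as replicates 3, 4 and 5 in each genotype. AID-DIvA is a U2OS osteosarcoma line that carries the AsiSI nuclease, which makes DNA breaks only after 4-hydroxytamoxifen is added. No sample here received it. ARID1A, the DNA-binding subunit of a SWI/SNF chromatin remodeler, was disrupted with Cas9 and a pair of guides, and knockout clones were grown out. Which clone was sequenced is not given in the sources used here, so a single clone may stand behind all 3 ARID1A-KO samples, and loss of ARID1A and a difference between clones cannot be told apart.

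Elastic fibers give tissues recoil. They hold a core of crosslinked elastin on a scaffold of microfibrils, which are built from fibrillins (FBN1, FBN2) and decorated by the small glycoproteins MFAP2 and MFAP5. Fibulins and EMILIN1 help to bring elastin onto the scaffold, LOX crosslinks it, and latent TGF-beta binding proteins (LTBPs) tie the growth factor TGF-beta to it. Bone-forming cells are known to make microfibrils without elastin.

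Reverse-stranded counts per sample came to between 54512105 and 84088708, so counting error was small for all but the lowest genes. ARID1A itself fell from 166, 178 and 177 CPM (counts for each 1e+06 counts of the library) in WT to 25.1, 27.5 and 25.2 CPM in ARID1A-KO replicates 3, 4 and 5 (edgeR adjusted p = 9.66e-08). Among same-genotype pairs, the chi-square per gene between counts ran from 7.01 to 33.5, so no pair was a repeat of the same library. WT replicate 4 and ARID1A-KO replicate 5 departed most from the others of their genotype for several of the genes below, and results that rest on either are given with and without it. The study's figure legend for these data gives the replicates as independent experiments, and p-values measure the spread between these samples. Of 8 osteoblast lineage markers, 4 (COL1A1, SPARC, RUNX2 and ALPL) were above 1 CPM in every sample and 4 (SP7, BGLAP, IBSP and COL1A2) were below 1 CPM on average. The summed CPM of the 8 was 1181 to 1268 in WT and 713 to 789 in ARID1A-KO cells. Most of this sum was SPARC and COL1A1. RUNX2 overlapped between the genotypes, at 13.6 to 16.4 CPM in WT and 11.5 to 18.8 in ARID1A-KO cells. Of the 5 tested, 3 were lower, where 18.4% of all genes tested were lower. Summed markers of other cell types were low, at 8.95 to 12.9 CPM in WT and 12.5 to 14.9 in ARID1A-KO for 5 epithelial genes, 2.61 to 4.25 and 2.49 to 2.64 for 3 endothelial genes, and 1.73 to 2.92 and 0.397 to 0.943 for 4 immune genes. The part of these shifts in the results below was not tested.

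The label of an elastic fiber set held only in part. Elastin itself (ELN, ENSG00000049540.12, chromosome 7 from 73442119 to 73484237, plus strand) was nearly absent. It had 1, 4 and 0 counts in WT replicates 3, 4 and 5 and 3 counts in each ARID1A-KO sample, against 6166 to 16005 counts per sample for the fibrillin FBN2. A count of 0 in a library allows up to 3 counts, so neither genotype stood above the other. ELN and MFAP4 had too few counts to be tested, and the other 8 genes were tested.

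**Figure D1:**
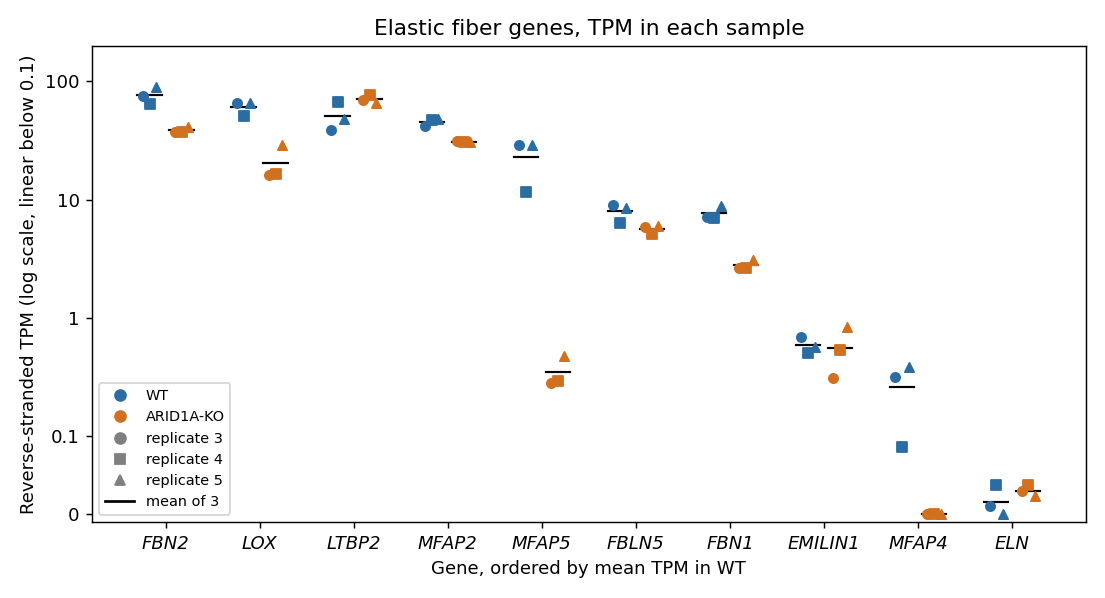
TPM (transcripts per 1e+06, the authors' length-corrected level, reverse-stranded) of the 10 elastic fiber genes in each sample, on a log axis that is linear below 0.1. Points are samples, shapes are replicate numbers and bars are means of 3. MFAP5 went from 11.6 to 28.9 TPM in WT to between 0.281 and 0.469 in ARID1A-KO cells, ELN stayed below 0.1 in both, and LTBP2 alone among the abundant genes had a higher mean in ARID1A-KO cells.

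Levels of different genes were compared per length, as the authors' TPM. In WT cells FBN2 led with 76.7 ± 13.2 TPM, followed by LOX with 60.4 ± 8.31, LTBP2 with 51.0 ± 14.1 and MFAP2 with 45.8 ± 3.48 (SD, n = 3). Each of these overlapped the next in its range over samples. MFAP5 stood clear below them at 23.1 ± 9.95 TPM, then came FBLN5 at 7.96 ± 1.46 and FBN1 at 7.65 ± 1.06, which overlapped. EMILIN1 (0.581 ± 0.091 TPM), MFAP4 and ELN were lowest. In ARID1A-KO cells the order changed. LTBP2 led with 70.8 ± 5.43 TPM, then FBN2 with 38.7 ± 2.13, MFAP2 with 31.0 ± 0.518, LOX with 20.5 ± 7.15, FBLN5 with 5.64 ± 0.478 and FBN1 with 2.76 ± 0.246, none of which overlapped its neighbour in the order. MFAP5 dropped from rank 5 to rank 8 of the 10, to 0.347 ± 0.106 TPM, where it overlapped EMILIN1 at 0.555 ± 0.261.

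The comparison of genotypes asked which of these genes differ without ARID1A before any DNA damage. Of the 9 genes other than MFAP5, 7 were tested, and 5 of them were lower in ARID1A-KO cells and 0 higher by the quasi-likelihood test of edgeR (adjusted p under 0.05). LTBP2 and EMILIN1 did not pass. By the same rule 36.2% of all 19599 genes tested were called, 18.4% lower and 17.8% higher. The median log2 fold change was -0.58 over the 7 genes and 0.0066 over all genes tested. The 5 called genes, FBN1, FBN2, MFAP2, LOX and FBLN5, were also those whose CPM did not overlap between the genotypes, which held downwards for 24.8% and in either direction for 49.5% of all genes tested. Because the list was drawn up with this comparison known, nothing is read from these shares. In bulk RNA, fewer cells that make a transcript and less of it per cell cannot be told apart.

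MFAP5 (ENSG00000197614.6, chromosome 12 from 8789942 to 8815484 in GRCh37, minus strand) encodes a microfibril glycoprotein with an integrin-binding RGD motif. It had 1659, 727 and 1503 counts in WT replicates 3, 4 and 5, and 17, 14 and 35 counts in ARID1A-KO replicates 3, 4 and 5. As TPM these were 28.7, 11.6 and 28.9 against 0.281, 0.29 and 0.469. WT replicate 4 was well below the other WT samples and still far above every ARID1A-KO sample. The log2 fold change was -6.03 (SE 0.42), or 65.1-fold lower, the 16th most negative of the genes tested. Leaving out single samples, it ran from -6.35 to -5.82. Transcripts were thus still detected in every ARID1A-KO sample, at about the level of EMILIN1.

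MFAP2 (ENSG00000117122.9, chromosome 1 from 17300997 to 17307330, minus strand) encodes the close relative of MFAP5 on the same microfibrils. Its TPM was 41.8, 47.6 and 48.0 in WT and 31.5, 30.6 and 30.8 in ARID1A-KO replicates 3, 4 and 5. All 3 ARID1A-KO samples lay below all WT samples, and they differed little from each other. The log2 fold change was -0.58 (SE 0.08, edgeR adjusted p = 0.000681). Both glycoproteins were lower, but by very different amounts. The pairs of genes set as ratios or sums here and below were picked after their values were seen. The ratio of MFAP2 to MFAP5 TPM was 1.46, 4.11 and 1.66 in WT replicates 3, 4 and 5, and 112, 105 and 65.6 in the ARID1A-KO replicates. MFAP2 was therefore nearly the sole member of the pair in ARID1A-KO cells, a description that follows from the choice of MFAP5.

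MFAP4 (ENSG00000166482.7, chromosome 17 from 19286755 to 19290553, minus strand), a fibrinogen-domain protein of elastic fibers, had counts mostly on the forward strand, opposite to those used for the comparison. Its reverse-stranded counts were 10, 3 and 11 in WT replicates 3, 4 and 5 and 0 in all ARID1A-KO samples, at least 8.31-fold lower when 3 counts are set as the floor over the ARID1A-KO group. This bound rests on only 24 counts. On the forward strand it had 165, 147 and 133 counts in WT and 107, 104 and 184 in ARID1A-KO cells, 92.4% to 100% of its stranded counts. MAPK7, a gene of the opposite strand with 1285 to 2013 counts, overlaps MFAP4 by 103 bp. Counted without regard to strand, MFAP4 appeared at 3.82 TPM in WT and 2.74 TPM in ARID1A-KO cells, against a reverse-stranded WT level of 0.26 TPM. ELN was alike, with 4 to 12 forward-strand counts beside 0 to 4 reverse-stranded counts.

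FBN1 and FBN2 encode fibrillin-1 and fibrillin-2, the long glycoproteins that polymerise into the microfibril. FBN1 (ENSG00000166147.9, chromosome 15 from 48700503 to 48938046, minus strand) had 7.12, 6.96 and 8.87 TPM in WT and 2.63, 2.62 and 3.05 in ARID1A-KO replicates 3, 4 and 5. Its log2 fold change was -1.49 (SE 0.11, edgeR adjusted p = 2.12e-05), or 2.80-fold lower. FBN2 (ENSG00000138829.6, chromosome 5 from 127593601 to 127994878, minus strand) had 75.5, 64.1 and 90.3 TPM in WT and 37.4, 37.5 and 41.1 in ARID1A-KO cells. Its log2 fold change was -1.01 (SE 0.11, edgeR adjusted p = 0.000168), or 2.01-fold lower. For both genes the ARID1A-KO samples lay close together and below every WT sample, and both calls held with each sample left out. FBN2 was the main fibrillin of these cells in both genotypes, at 9.21 to 10.6 times the TPM of FBN1 in WT and 13.5 to 14.3 times in ARID1A-KO cells. The TPM of FBN1, FBN2, MFAP2 and MFAP5 together was 153 ± 23.0 for WT and 72.7 ± 2.36 for ARID1A-KO (SD, n = 3), most of it FBN2 and MFAP2.

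LOX (ENSG00000113083.8, chromosome 5 from 121398890 to 121413980, minus strand) encodes lysyl oxidase, the copper enzyme that crosslinks elastin and collagen. It had 65.4, 50.8 and 65.1 TPM in WT and 16.1, 16.5 and 28.7 in ARID1A-KO replicates 3, 4 and 5. ARID1A-KO replicate 5 was above the other ARID1A-KO samples, but no sample reached the WT range. The log2 fold change was -1.58 (SE 0.20, edgeR adjusted p = 0.000289), or 2.99-fold lower. Without ARID1A-KO replicate 5 it was -1.88. The forward strand held 2.61% to 3.70% of the stranded counts of LOX in WT and 5.27% to 8.62% in ARID1A-KO cells, where SRFBP1 overlaps it by 12376 bp on the opposite strand. SRFBP1 did not pass the test, with a log2 fold change of 0.046 (SE 0.08).

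The 250 bases before the RefSeq start of FBN1 and FBN2 are shown because these fibrillins form the scaffold and both fell. Of the 10 genes, 6 had an entry in the RefSeq promoter table (GRCh38.p14). MFAP5, MFAP4, ELN and EMILIN1 had none. The windows were located by exact match in GRCh37, at chr15:48937168-48937417 for FBN1 and chr5:127873939-127874188 for FBN2, both on the minus strand and written 5′ to 3′, and 0 exons of the GRCh37 annotation used here overlap either. Capitals mark motif letters, searched on both strands.
FBN1: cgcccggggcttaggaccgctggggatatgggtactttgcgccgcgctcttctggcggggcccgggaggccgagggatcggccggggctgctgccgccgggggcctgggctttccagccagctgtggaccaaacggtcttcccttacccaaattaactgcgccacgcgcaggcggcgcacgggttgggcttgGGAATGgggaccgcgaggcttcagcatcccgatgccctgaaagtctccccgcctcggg
FBN2: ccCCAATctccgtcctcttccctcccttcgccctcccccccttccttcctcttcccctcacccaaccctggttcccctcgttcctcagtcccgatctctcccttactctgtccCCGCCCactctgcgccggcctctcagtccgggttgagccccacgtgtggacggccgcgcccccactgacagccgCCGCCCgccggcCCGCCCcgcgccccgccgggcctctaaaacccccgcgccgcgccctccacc
The motifs were the TEAD letters GGAATG, which the FBN1 window held once. The CCAAT box stood once in FBN2, and the GC box, GGGCGG, stood there 3 times. The AP-1 letters TGANTCA and the TATA box, TATAAA, were in neither window. Of 35116 promoter entries, 11.9% hold the TEAD letters, 32.0% a CCAAT box, 42.6% a GC box, 6.57% the AP-1 letters and 10.7% a TATA box. Over the 6 genes with an entry the counts were 1, 3, 5, 0 and 0. Where a gene had several RefSeq starts, the one nearest to the end of its model in the files was used, a rule set after the matches were seen, and another start of MFAP2 has 2 AP-1 matches and another start of FBLN5 has 1 TATA box. The motifs were also chosen after the values were seen. The starts used lie inside the gene models of the files, by 879 bp for FBN1 and 120940 bp for FBN2. SLC27A6, a gene of the opposite strand that begins near the FBN2 start and overlaps the FBN2 model by 121173 bp, had a log2 fold change of 0.81 (SE 0.14, edgeR adjusted p = 0.00224), opposite in sign to that of FBN2. SLC27A6, MAPK7 and SRFBP1 were named after their values were seen.

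FBLN5 (ENSG00000140092.10, chromosome 14 from 92335756 to 92414331, minus strand) encodes fibulin-5, which links elastin to microfibrils and to cell-surface integrins. Its TPM was 9.07, 6.30 and 8.51 in WT and 5.81, 5.10 and 6.01 in ARID1A-KO replicates 3, 4 and 5. The groups did not overlap, but WT replicate 4 came within a small distance of ARID1A-KO replicate 5. The log2 fold change was -0.51 (SE 0.14, edgeR adjusted p = 0.021). This call depended on single samples. It was lost without WT replicate 3 (adjusted p = 0.0774), WT replicate 5 (0.0732) or ARID1A-KO replicate 4 (0.0846), all from edgeR.

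EMILIN1 (ENSG00000138080.9, chromosome 2 from 27301435 to 27309271, plus strand), which encodes a glycoprotein at the interface of elastin and microfibrils, had 40, 32 and 30 counts in WT and 19, 26 and 63 in ARID1A-KO replicates 3, 4 and 5. The ARID1A-KO samples lay on both sides of the WT samples. The log2 fold change was -0.067 (SE 0.33, edgeR adjusted p = 0.898), and it was positive at 0.22 without ARID1A-KO replicate 3 and at 0.25 when reads were counted without regard to strand. A difference was not detected, and the SE leaves room for a sizeable change in either direction. Counts were low and the ARID1A-KO samples spread widely (CV of CPM 44.7%), and the part of each was not tested.

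LTBP2 (ENSG00000119681.7, chromosome 14 from 74964873 to 75079306, minus strand) encodes a latent TGF-beta binding protein that attaches to microfibrils without binding TGF-beta itself. It had 38.8, 66.4 and 47.9 TPM in WT and 69.3, 76.8 and 66.2 in ARID1A-KO replicates 3, 4 and 5. WT replicate 4 reached the ARID1A-KO range, and the other WT samples lay below it. The log2 fold change was 0.45 (SE 0.17, edgeR adjusted p = 0.0648). Without WT replicate 4 it was 0.69, with an adjusted p of 0.00173 from the same edgeR test, and with DESeq2 on all samples it was 0.45, with an adjusted p of 0.0173. With edgeR on all samples it also passed with the replicate number as a block (adjusted p = 0.00864) and with no filter on low counts (adjusted p = 2.19e-07). Without the filter the edgeR adjusted p of FBN1 was also far smaller, 3.42e-40 against 2.12e-05 with it. The value without a filter thus cannot be set beside those of the other fits. Whether LTBP2 passed turned on WT replicate 4, the tool, the block and the filter. The ratio of LTBP2 to FBN2 TPM was 0.514, 1.04 and 0.53 in WT and 1.85, 2.05 and 1.61 in ARID1A-KO replicates 3, 4 and 5.

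**Figure D2:**
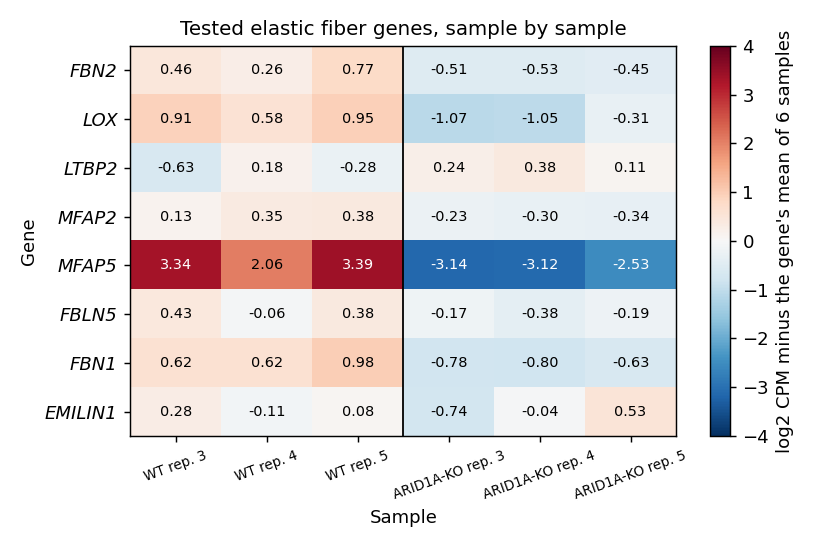
The 8 tested elastic fiber genes in each sample, as log2 CPM minus the gene's mean over the 6 samples (red above, blue below). WT replicate 4 had the lowest WT value for MFAP5 (2.06), LOX (0.58), FBN2 (0.26) and FBLN5 (-0.06) and the highest for LTBP2 (0.18), and ARID1A-KO replicate 5 had the highest ARID1A-KO value for MFAP5 (-2.53) and LOX (-0.31).

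The samples of a genotype did not vary in the same way for all genes. On the log2 CPM scale, WT replicate 4 was below the mean of the other WT samples by 1.30 for MFAP5, 0.47 for FBLN5, 0.36 for FBN2 and 0.35 for LOX, and above it by 0.63 for LTBP2. ARID1A-KO replicate 5 was above the mean of the other ARID1A-KO samples by 0.92 for EMILIN1, 0.75 for LOX and 0.60 for MFAP5. MFAP2 and FBN1 departed least in these samples, by at most 0.18. For FBN1, FBN2, LOX and MFAP2 the calls stood when both samples were left out, an alternative added after seeing the data, in which 6 of the 7 genes were called, LTBP2 among them.

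Neighbouring genes were taken as a regional background. The other tested genes that start within 5 Mb had a median log2 fold change between -0.07 and 0.08 for MFAP5, MFAP2, FBN1, FBN2, LOX, FBLN5 and EMILIN1. LTBP2 stood apart. Its 99 neighbours had a median of 0.37, close to its own 0.45, with 53 higher and 6 lower at an adjusted p under 0.05. TGFB3, which encodes a TGF-beta ligand, is itself among these 99 neighbours. Its own neighbours had a median of 0.42, but they lie largely in the same region and are not a separate observation. DNA copy number was not measured here, and the part of this regional shift in LTBP2 was not tested.

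**Figure D3:**
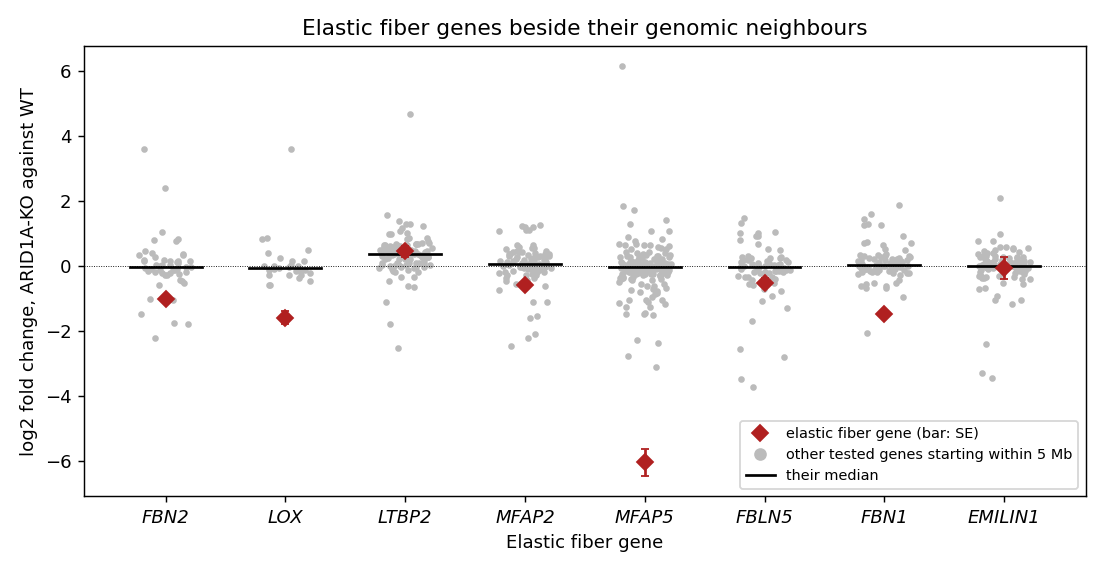
Log2 fold change of ARID1A-KO against WT for the 8 tested elastic fiber genes (red diamonds, bars are SE), for the other tested genes that start within 5 Mb (grey) and for the median of these (black line). The median is near 0 for all but LTBP2, where it is 0.37. MFAP5 at -6.03 lies below every one of its 153 neighbours, a position that follows largely from its choice by that fall.

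Around MFAP5, 26 tested genes start within 1 Mb, and they did not move as a block. Distances were taken between the lower coordinates of the genes, whatever their strand. RIMKLB, the nearest at 44.3 kb by this measure, had a log2 fold change of -0.38 (SE 0.06), against -6.03 for MFAP5. A2M, the protease inhibitor alpha-2-macroglobulin, went from 9.38 to 1.80 mean CPM, a log2 fold change of -2.37 (edgeR adjusted p = 3.30e-05). RP11-20D14.6, 151 kb from MFAP5 by the same measure, moved the other way, from 0.062 to 4.43 mean CPM. Its log2 fold change was 6.13 (edgeR adjusted p = 1.21e-06). PHC1, a Polycomb gene, rose by 0.29 and SLC2A3, a glucose transporter gene, had 0.13 and was not called.

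By the distance between log2 CPM values centred on each gene's mean over the 6 samples, the 5 genes most like MFAP5 among 13210 were AC011738.4, RP11-89M22.3, C6orf99, ZBED2 and HEPHL1, with distances of 0.886 to 1.51. They lie on 5 different chromosomes, and RP11-89M22.3 is on chromosome 12, as is MFAP5. Pearson's r with MFAP5 was 0.985 to 0.993 over the 6 samples, which fall into 2 genotypes, and is a description of that gap. WT replicate 4 was the lowest WT sample for all of these but C6orf99, by the widest margin for AC011738.4 and ZBED2. The genes were picked by closeness over these same samples, which favours this pattern. AC011738.4 had 17.0, 5.41 and 10.7 CPM in WT replicates 3, 4 and 5 and ZBED2 had 5.77, 1.82 and 7.04 CPM, against at most 0.22 CPM in any ARID1A-KO sample for both.

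A list of 58 other genes of elastic fiber assembly, crosslinking, turnover and adhesion gave the wider pathway. Of these 51 were tested, and 16 were lower and 12 higher in ARID1A-KO cells, 28 in all, where 18.4% of all genes tested were lower, 17.8% higher and 36.2% called. The median log2 fold change was 0.042 over the 51. The remaining 23 did not pass. In the lysyl oxidase family LOX was not alone. LOXL1, which encodes the family member most tied to elastin, went from 16.4 ± 2.43 to 3.32 ± 1.65 TPM (SD, n = 3), a log2 fold change of -2.31 (SE 0.29, edgeR adjusted p = 0.000286). ARID1A-KO replicates 3, 4 and 5 had 1.83, 3.02 and 5.10 TPM. Leaving out single samples, the log2 fold change of LOXL1 ran from -2.76 to -2.03 and the call held. Its forward strand held 110 to 140 counts beside 774 to 1033 reverse-stranded counts in WT, and 40 to 97 beside 104 to 357 in ARID1A-KO. Genes without an SE beside them here and in the paragraphs below that are absent from the plot of fold changes were named after their values were seen. LOXL2 was higher by 0.24, a call lost without ARID1A-KO replicate 4 (edgeR adjusted p = 0.0529). LOXL3 and LOXL4 had 0.10 and 0.41 and were not called, and without ARID1A-KO replicate 5 LOXL4 had 0.07. Neighbours of LOXL4 within 5 Mb had a median of 0.30. The summed TPM of the 5 lysyl oxidase genes was 204, 170 and 193 in WT replicates 3, 4 and 5 and 141, 150 and 198 in ARID1A-KO replicates 3, 4 and 5. ARID1A-KO replicate 5 lay within the WT range, and the other ARID1A-KO samples lay below every WT sample.

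**Figure D4:**
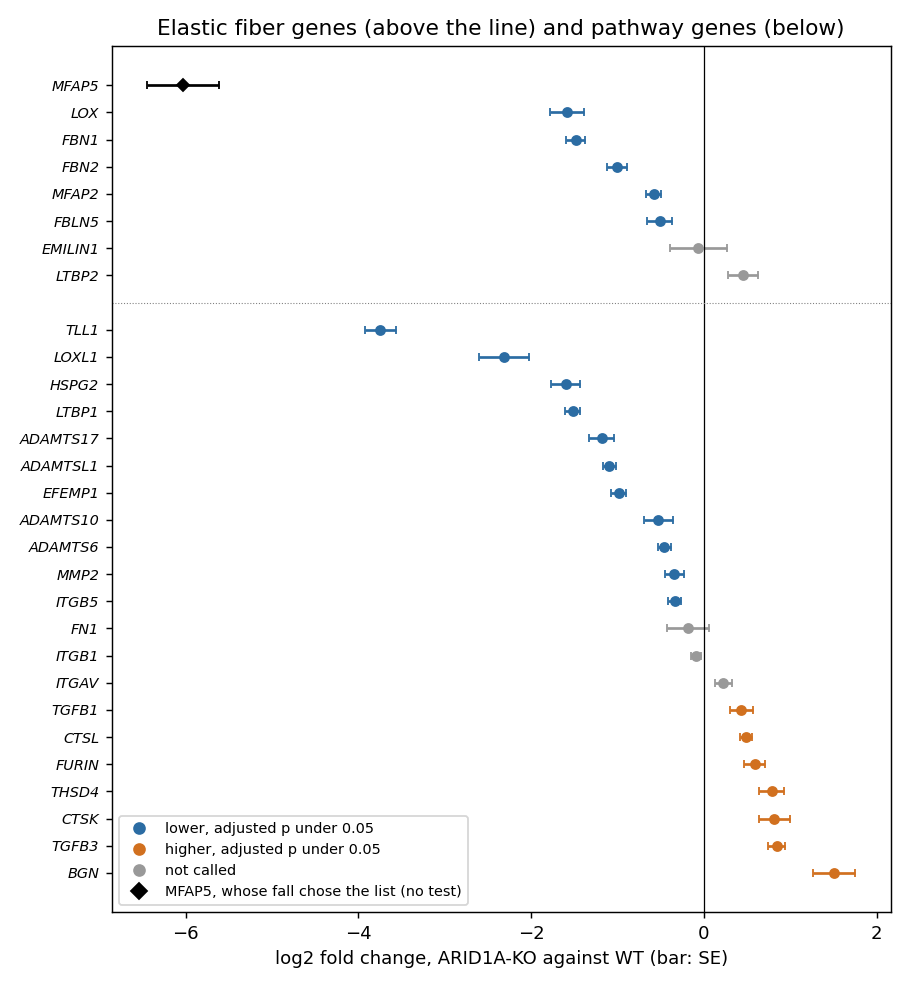
Log2 fold change of ARID1A-KO against WT (bars are SE) for the 8 tested elastic fiber genes above the dotted line and the 21 pathway genes named by rule below it. Blue is lower, orange higher and grey not called by the edgeR test, and MFAP5 (black) has no test. Among pathway genes the values ran from -3.75 for TLL1 to 1.51 for BGN.

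Of 6 genes tied to the processing of LOX and fibrillin, all tested, 3 were higher (FURIN, TLL2 and POSTN) and 2 lower (TLL1 and BMP1), where 17.8% of all genes tested were higher and 18.4% lower. TLL1, a tolloid protease that can activate pro-LOX, fell by 3.75 on the log2 scale (SE 0.18), from 2.89 ± 0.212 to 0.214 ± 0.040 TPM. Its 22 neighbours within 5 Mb had a median of -1.29, and their part in this fall was not tested. POSTN, which encodes the matrix protein periostin, rose by 1.35, but only from 0.219 to 0.567 mean TPM. TLL2, another tolloid protease, rose by 0.55, from 0.844 to 1.25 mean TPM, beside neighbours with a median of 0.20. Leaving out any of ARID1A-KO replicates 3 and 4 and WT replicates 3 and 4 ended the call of TLL2, with edgeR adjusted p from 0.0875 to 0.112. BMP1, the better known pro-LOX protease, fell by 0.26, a call lost without ARID1A-KO replicate 3 (edgeR adjusted p = 0.0515), and FURIN, which trims pro-fibrillin, rose by 0.59 to 226 ± 19.1 TPM. The copper transporter gene ATP7A had 0.19 and was not called.

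Among the LTBPs and their ligands the members went in different directions. LTBP1 fell by 1.52 on the log2 scale (SE 0.09, edgeR adjusted p = 4.08e-06), from 55.9 ± 6.11 to 19.8 ± 0.238 TPM. LTBP3 and LTBP4 were not called. The ratio of LTBP2 to LTBP1 TPM was 0.761 to 1.06 in WT and 3.40 to 3.86 in ARID1A-KO cells. The 4 LTBP genes together had 198 ± 18.8 TPM in WT samples and 198 ± 17.3 TPM in ARID1A-KO samples (SD, n = 3). Of the TGF-beta ligands, TGFB3 rose by 0.84 and TGFB1 by 0.43, while TGFB2 fell by 0.29. The call of TGFB1 was lost without ARID1A-KO replicate 4 or 5 or WT replicate 3 or 4, with edgeR adjusted p from 0.0611 to 0.101, and its log2 fold change was 0.31 without ARID1A-KO replicate 5 and 0.34 without WT replicate 4.

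Of 6 fibulin and hemicentin genes, only EFEMP1 (fibulin-3) was called, lower by 0.99 on the log2 scale, from 74.7 ± 3.10 to 38.0 ± 3.55 TPM. FBLN1, at 34.5 ± 3.34 and 36.4 ± 2.11 TPM, and EFEMP2 (fibulin-4) had log2 fold changes of 0.059 and 0.042 and were not called. EMILIN2, related to EMILIN1, rose by 0.28, a call lost without WT replicate 5 (edgeR adjusted p = 0.0851) or ARID1A-KO replicate 5 (0.0614). Of 9 ADAMTS and ADAMTSL genes, whose proteins bind fibrillin or belong to that family, all tested, 4 were lower and 1 higher, where 18.4% of all genes tested were lower and 17.8% higher. ADAMTS17 fell by 1.19, ADAMTSL1 by 1.10, ADAMTS10 by 0.53 and ADAMTS6, the most abundant at 187 ± 13.8 TPM in WT, by 0.46, whereas THSD4 rose by 0.78. Neighbours of ADAMTSL1 on chromosome 9 had a median of -1.48, below its own value, and those of ADAMTS10 one of -0.28. ADAMTS10 lost its call without replicate 3 or 4 of ARID1A-KO or replicate 3 or 5 of WT, with edgeR adjusted p from 0.0573 to 0.116.

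Matrix partners and receptors also differed. HSPG2, which encodes perlecan, fell by 1.60 (SE 0.17, edgeR adjusted p = 0.000114), from 46.2 ± 6.73 to 15.4 ± 4.16 TPM. BGN, which encodes biglycan, rose by 1.51, from 2.37 ± 0.854 to 6.79 ± 0.841 TPM. FN1 (fibronectin, on which fibrillin assembles) had -0.19 (SE 0.24) and was not called. Its 35227, 79605 and 39885 counts in WT replicates 3, 4 and 5 again set replicate 4 apart, and without it the log2 fold change was positive at 0.17. Of 8 integrin subunits that bind RGD ligands 7 were tested, 1 higher and 2 lower, where 36.2% of all genes tested were called. ITGA5, the higher one, lost its call without ARID1A-KO replicate 4 (edgeR adjusted p = 0.0722) or WT replicate 3 (0.059). ITGB3, lower, lost its call without replicate 3 or 4 of either genotype, with edgeR adjusted p from 0.0821 to 0.15. ITGB1, at 955 ± 33.4 TPM in WT, had -0.093 and ITGAV 0.23, and neither was called (ITGAV had 0.10 without ARID1A-KO replicate 5), whereas ITGB5 fell by 0.34 beside neighbours with a median of -0.42. Of 8 elastin-degrading proteases 7 were tested, 3 lower and 2 higher, where 18.4% of all genes tested were lower and 17.8% higher. Among the lower, MMP12 lost its call without ARID1A-KO replicate 3 or 4 or WT replicate 3 or 5, with edgeR adjusted p from 0.0997 to 0.122. CTSL rose by 0.49, to 204 ± 5.05 TPM, and CTSK by 0.81, whereas MMP2 fell by 0.34. Neighbours of MMP2 had a median of 0.29. The call of MMP2 was lost without any single ARID1A-KO sample or without WT replicate 5, with edgeR adjusted p from 0.0581 to 0.081.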

How the data were processed

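RNA-seq was compared between 3 WT and 3 ARID1A-KO samples, grouped by the genotype labels. Per the study's methods, libraries were made with a stranded total RNA kit (the labels give polyA RNA), and reads were aligned to hg19/GRCh37 with STAR and counted per gene with featureCounts. The authors deposited whole-number counts per gene without normalization, by strand and without regard to strand. The deposited TPM values are a signal per length that the authors scaled to a sum near 1e+06 over autosomal genes.

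Reverse-stranded counts were used. Genes were kept with filterByExpr, normalized by TMM and compared with edgeR's quasi-likelihood test (edgeR 4.0.16, R 4.3.3) over all 6 samples without covariates, with Benjamini-Hochberg adjustment over all 19599 genes tested. The fit was tested on simulated data, with a pass criterion, over the larger changes, that was set after a stricter criterion over all changes was narrowly missed. Fold changes are ARID1A-KO against WT.

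Members and gene lists were chosen with earlier results of these data known. Pathway genes were named when called without overlap and with a mean log2 CPM over 1, up to the 16 largest changes, or when over 100 TPM in every sample. ITGB3 has 2 entries, of which the one with counts was used. PECAM1 was not used here. Alternatives were unstranded counts and TPM, RLE normalization, DESeq2 1.42.0, other filters, the replicate block, an adjusted p under 0.01 and samples left out.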

Additional observations from a re-analysis of the deposited data

Results flagged for a closer look

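Counts on the forward strand were not used for the comparisons. For LTBP2 they were above the WT samples in every ARID1A-KO sample, at 0.443 forward-strand counts for each 1e+06 reverse-stranded counts on average in ARID1A-KO against 0.211 in WT. For EMILIN1 they were 0.283 against 0.131. Both rest on few counts, at 13 to 53 per sample for LTBP2 and 6 to 28 for EMILIN1. The share of the forward strand in the stranded counts of LTBP2 overlapped between genotypes, at 0.149% to 0.259% in WT and 0.188% to 0.445% in ARID1A-KO. For EMILIN1 this share was larger and did not overlap, at 15.8% to 24.5% in WT and 30.8% to 50.0% in ARID1A-KO. Its source was not tested.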

How the results depend on the processing

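Of the 9 elastic fiber genes other than MFAP5, 5 were called with all samples. The number was 4 to 7 with single samples left out (in some of these fits MFAP4 passed the filter, so 8 of the 9 genes were tested), 6 with DESeq2, with the replicate block or without both WT replicate 4 and ARID1A-KO replicate 5, and 7 without a filter. An adjusted p under 0.01 left 4 of these genes, 18 of the 28 pathway genes and 4414 of the 7099 called among all genes. With each sample left out, 20 to 26 pathway genes and 5285 to 7050 of all genes were called. FBN1, FBN2, MFAP2 and LOX kept their direction and their call under all alternatives that were run. The deviations of same-numbered samples correlated at -0.177, 0.268 and 0.180. Differently numbered samples were not compared, so these values cannot decide whether the replicate numbers pair the samples. The replicate block gave 30 pathway genes and 7477 of all genes, and with it LTBP2 was called (log2 fold change 0.49, edgeR adjusted p = 0.00864). The sign of EMILIN1 changed to 0.25 with counts without regard to strand, 0.22 without ARID1A-KO replicate 3 and 0.037 without WT replicate 3, and that of FN1 to 0.17 without WT replicate 4 and 0.31 without both that sample and ARID1A-KO replicate 5. With single samples left out, EMILIN1 ran from -0.49 to 0.22 and FN1 from -0.41 to 0.17, and without the 2 samples together EMILIN1 was -0.60. The causes were not tested. Few reverse-stranded counts limit what can be said of ELN and MFAP4, whose stranded counts lay mostly on the forward strand. Low counts together with the spread between ARID1A-KO samples limit EMILIN1.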
